A study of Mus musculus with 5 samples.

Results

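Single embryonic stem (ES) cells that were high in mitotic transcripts were compared with the other ES cells of the same plate. The cells were chosen by a measured value. Wells with at least 10000 reads on genes were kept, and a mitotic score was computed for each as the share of its gene reads that fell on 8 genes (Ccna2, Ccnb1, Ccnb2, Cdc20, Plk1, Aurka, Top2a and Birc5), given in RPM, the reads per 1000000 gene reads. Within each plate, cells above the plate's median score are called score-high here and the rest score-low. ES plate 1 gave 42 score-high and 42 score-low cells of 96 wells, and ES plate 3 gave 35 and 35 of 96 wells. These 154 cells are a subset of the 272 wells that reached 10000 gene reads among the 480 wells of the series.

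The ES cells were the mouse line ES R1, labelled as spheres derived from embryonic stem cells, and carried no treatment, allele or transgene in the labels. Spheres were dissociated, cells were sorted 1 per well, and every well received a template-switching oligo with its own tag before the 96 reactions of the plate were pooled for PCR. A second ES plate (plate 2) had 2 wells over the limit and was not split, and 1 plate each of Neuro2A, a mouse neuroblastoma line, and of mouse embryonic fibroblasts (MEF) served as plates that the choice of cells did not use. The labels do not name a culture for either ES plate, so the spread between plates may be technical. Both plates used the same set of tags, so 62 well tags occur among the kept cells of both; they mark positions and not shared cells. The protocol names no molecular identifiers, and amplified copies of 1 molecule are counted as separate reads.

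As background, genes of the G2 and M phases are switched on late in the cell cycle by shared promoter elements: NF-Y boxes and the cell-cycle homology region (CHR), which recruits the DREAM and MMB complexes. Cyclins A and B (Ccna2, Ccnb1, Ccnb2) activate the mitotic kinase Cdk1, Aurka and Plk1 drive centrosome maturation and spindle assembly, Top2a untangles sister chromatids, Birc5 (survivin) belongs to the chromosomal passenger complex, and Cdc20 activates the anaphase-promoting complex that ends mitosis by destroying the cyclins. ES cells divide rapidly and have a short G1 phase, so a culture holds many cells in S, G2 and M.

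The promoters of the score genes are shown because genes of the G2 and M phases are known to share the promoter elements named above. Of the 8 genes, 7 (all but Ccna2) matched the RefSeq promoter table (GRCm38.p6), with 1 promoter each. In the 250 bases before the start, both strands were searched for the NF-Y box CCAAT and for the CHR written as TTTGAA or TTCGAA. The 150 bases nearest the start are printed 5′ to 3′ along the gene for Ccnb1 at chr13:100786487-100786636 (minus strand), Cdc20 at chr4:118437344-118437493 (minus strand), Top2a at chr11:99024190-99024339 (minus strand) and Birc5 at chr11:117849087-117849236 (plus strand). Capitals mark NF-Y and CHR matches on either strand.
Ccnb1: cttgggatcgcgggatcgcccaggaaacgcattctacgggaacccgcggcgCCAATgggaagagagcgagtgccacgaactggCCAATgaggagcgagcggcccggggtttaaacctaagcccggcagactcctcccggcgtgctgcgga
Cdc20: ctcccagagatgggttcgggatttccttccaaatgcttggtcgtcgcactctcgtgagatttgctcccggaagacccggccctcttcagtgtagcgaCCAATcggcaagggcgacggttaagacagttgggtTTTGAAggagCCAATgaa
Top2a: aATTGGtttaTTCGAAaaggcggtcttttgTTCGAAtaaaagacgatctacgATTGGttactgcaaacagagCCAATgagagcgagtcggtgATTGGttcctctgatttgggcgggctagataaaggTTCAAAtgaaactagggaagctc
Birc5: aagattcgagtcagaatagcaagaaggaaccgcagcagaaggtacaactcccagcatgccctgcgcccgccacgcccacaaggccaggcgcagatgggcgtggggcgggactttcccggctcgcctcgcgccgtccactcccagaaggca
An NF-Y box was found in 6 of the 7 promoters, against 33.85% of all 32851 promoters in the table. A CHR match was found in 3 of the 7 (Ccnb2, Cdc20 and Top2a), against 17.1% of all promoters, and those 3 held both motifs, against 6.02%. In Cdc20 both stand in the last bases before the start, while the Birc5 window held neither spelling. Bases past the start were not searched, so a motif there would be missed. None of the 7 held an E2F site written as TTTGGCGC, TTTCCCGC or TTTGGCGG, which 1.73% of all promoters held.

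The score spread widely between cells of a plate. In ES plate 1 it ran from 0 to 11243 RPM with a plate median of 649, and 17 score-low cells had no read on any of the 8 genes. In ES plate 3 it ran from 0 to 3545 with a median of 1176, and 4 cells were at 0. At the threshold, the lowest score-high and highest score-low cells stood at 711 and 586 in plate 1 and at 1191 and 1161 in plate 3, so in plate 3 the 2 groups meet with hardly a gap. Median scores were 1573 in score-high against 58.5 in score-low cells of plate 1, and 1745 against 708 in plate 3.

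**Figure D1:**
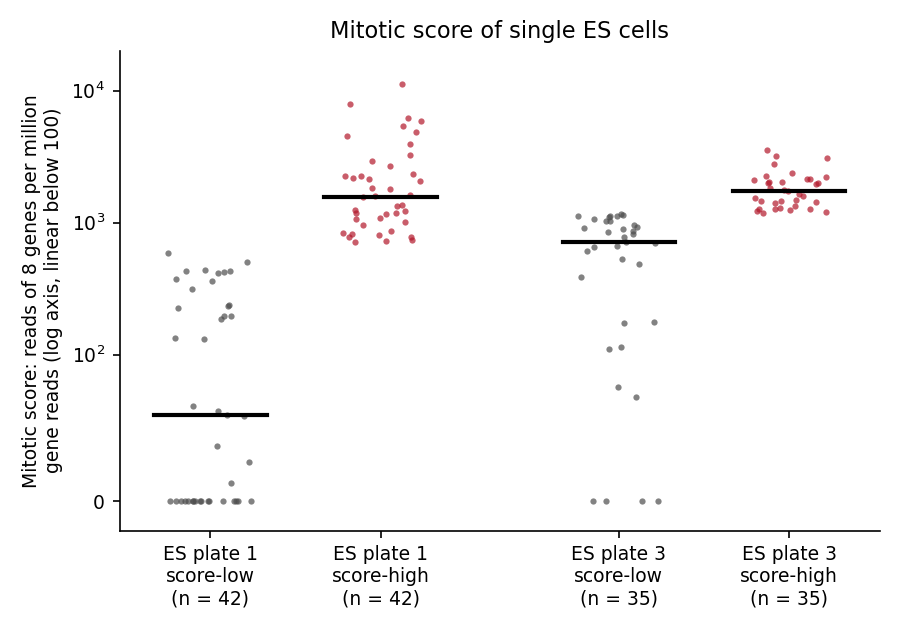
Mitotic score of each ES cell (RPM of the 8 score genes, log axis that is linear below 100) in the score-low (grey) and score-high (red) cells of ES plates 1 and 3; bars are medians. The groups are cut at the plate median by construction, and 17 cells of plate 1 and 4 of plate 3 lie at 0.

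The score of a cell often rested on few of the 8 genes. In the median score-high cell 1 gene gave 73.4% of the score reads in plate 1 and 51.9% in plate 3, and the median cell had reads on 3.5 and 5 of the 8 genes. Reads on 6 or more of them were found in 14 of 42 and 12 of 35 score-high cells. All the score reads fell on a single gene in 7 score-high cells of plate 1 and 2 of plate 3. Birc5 was the leading gene in 18 of 42 score-high cells of plate 1, and Top2a in 12 of 35 of plate 3.

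The levels of the score genes in the 4 sums (all reads of the score-high or score-low cells of a plate) describe the choice and test nothing. They are given in CPM, counts per 1000000 gene reads after TMM scaling, which adjusts for library size and composition. Ccnb1 stood at 382 CPM in score-high against 36.9 in score-low cells of plate 1, and at 195 against 89.1 in plate 3. Birc5 stood at 773 against 37.5 CPM and at 450.1 against 135 in the same order. The other 6 genes were also higher in the score-high sums of both plates, as the rule requires of their total but not of each. Ccna2 differed least in plate 3, at 169.9 CPM against 148. Plk1 had the fewest reads, with 119 and 1 in the score-high and score-low sums of plate 1 and 42 and 26 in plate 3.

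In order to ask whether the 8 genes moved together without using a gene to choose its own cells, cells were split again at the median of the score made from the other 7 genes. The summed levels did not rank together in the ES plates. In plate 1, 3 of 8 genes were higher in the cells above the 7-gene median (Cdc20, Plk1 and Aurka), and in plate 3, 2 of 8 (Ccna2 and Aurka). With every cell drawn down to 10000 gene reads, so that each weighs the same, 5 of 8 were higher in plate 1, where Ccna2 and Ccnb1 joined, and 1 of 8 in plate 3 (Ccna2). Cdc20 stood at 96.0 against 59.1 RPM in plate 1 and at 112 against 152 in plate 3. Aurka, the kinase of the spindle poles, was the gene higher in both plates, at 85.5 against 45.4 and at 42.9 against 33.3, though at equal weight it stood at 42.9 against 45.7 in plate 3.

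Several genes ran the other way in plate 1. Top2a stood at 99.7 RPM in cells high for the other 7 genes against 479.9 in the rest, and Ccnb2 at 51.2 against 181. In plate 3 the same genes differed little, at 280.2 against 299 for Top2a and 126 against 139 for Ccnb2. Birc5 was lower in both plates, at 401 against 733 and at 281 against 389.97. The median log2 ratio over the 8 genes was -0.42 in plate 1 and -0.14 in plate 3. No gene was 2-fold higher in both plates.

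Counting cells in place of reads gave another order. At 10000 gene reads per cell, Ccnb1 had a read in 22 of 42 cells above the 7-gene median in plate 1 and in 7 of 42 of the rest. Cdc20 had one in 12 against 4 cells and Aurka in 9 against 3. In plate 3, Ccna2 had a read in 20 of 35 against 13 of 35 cells and Ccnb2 in 15 against 10. More cells had a read in the upper group for 7 of 8 genes in plate 1 and 6 of 8 in plate 3; the exceptions were Ccnb2 (equal) in plate 1, Plk1 (equal) and Birc5 (20 against 21) in plate 3. Beside this, cells of the upper groups also had reads on more genes of every kind at that depth, by a ratio between 1.62 and 2.05 in plate 1 and between 1.00 and 1.19 in plate 3.

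When the median was taken separately in cells with more and with fewer detected genes than the plate's median (gene-number strata), the groups held nearly the same number of cells with a read. Summed over the 8 genes, reads were found in 73 gene and cell pairs of the upper group against 75 of the lower in plate 1 (42 and 42 cells), where the plain split gave 97 against 51. In plate 3 the sums were 107 against 109 in groups of 34 and 36 cells, where the plain split gave 116 against 100. Ccnb1 was then read in 14 against 15 cells of plate 1, and Birc5 in 16 of 34 against 25 of 36 cells of plate 3. This split was chosen after the data were seen. Across single cells, the pairwise Spearman correlation of the score genes' shares had a median of 0.28 in plate 1 (28 of 28 pairs above 0, 84 cells) and 0.15 in plate 3 (27 of 28, 70 cells); the points share depth and number of genes detected. The groups are therefore named by their score here and are given no phase of the cell cycle.

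**Figure D2:**
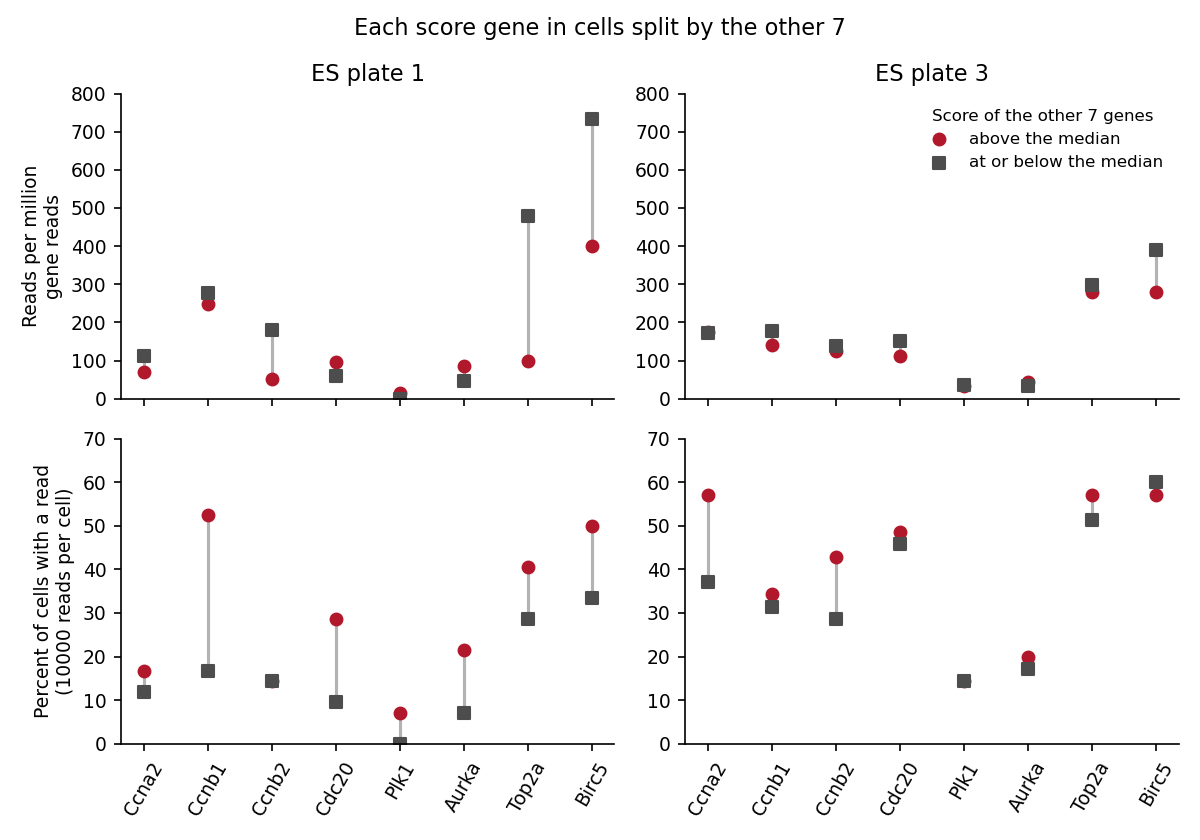
Each score gene in ES cells above (red circles) and at or below (grey squares) the median score of the other 7 genes, as RPM of gene reads (upper row) and as percent of cells with a read at 10000 reads per cell (lower row). Summed levels of Top2a and Birc5 lie lower in the upper group, while in plate 1 the percent of cells with Ccnb1 or Cdc20 lies higher.

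The same exercise in the plates that the choice of cells did not use gave higher summed levels in the upper group for 7 of 8 genes in Neuro2A and 7 of 8 in MEF, with median log2 ratios of 1.39 and 2.79. In Neuro2A, Birc5 stood at 554 against 50.1 RPM and Top2a at 202 against 61.4. The exceptions were Ccnb2 in Neuro2A (1.19 against 86.8) and Ccna2 in MEF (0 against 2.76). Single cells gave much of these levels in MEF, where 1 cell held 38 of the 41 reads on Cdc20, 32 of 38 on Plk1 and 51 of 78 on Aurka, and another held all 21 on Ccnb2. Counted by cells with a read at equal depth, the upper group was ahead for 6 of 8 genes in Neuro2A (1 equal, 1 behind) but for 3 of 8 in MEF (2 equal, 3 behind). Cells of the upper groups also had reads on more genes of every kind, by a ratio between 1.62 and 1.99 in Neuro2A and between 1.26 and 1.59 in MEF. By the score of all 8 genes, 20 of 32 score-low Neuro2A cells and 25 of 27 score-low MEF cells stood at 0. The MEF split is thus close to any read against none. These are values of 1 plate a cell type, and the difference from ES cells was not tested.

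The score groups differed in features outside the score. Score-high cells had more gene reads, with a median of 131628 against 95250.5 per cell in plate 1 and 28639 against 18208 in plate 3. At 10000 reads per cell they had reads on a median of 1341 against 783.5 genes in plate 1 and 2049 against 1910 in plate 3. The Spearman correlation of score and genes detected was 0.43 over the 84 cells of plate 1 and 0.18 over the 70 cells of plate 3, as a description of cells that share a plate. Wells whose tag ends in G made up 15 of 42 score-high and 8 of 42 score-low cells in plate 1, and 12 and 9 of 35 in plate 3. The part of these features in the results below was not tested, beyond the repeats without those wells and within gene-number strata.

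**Figure D3:**
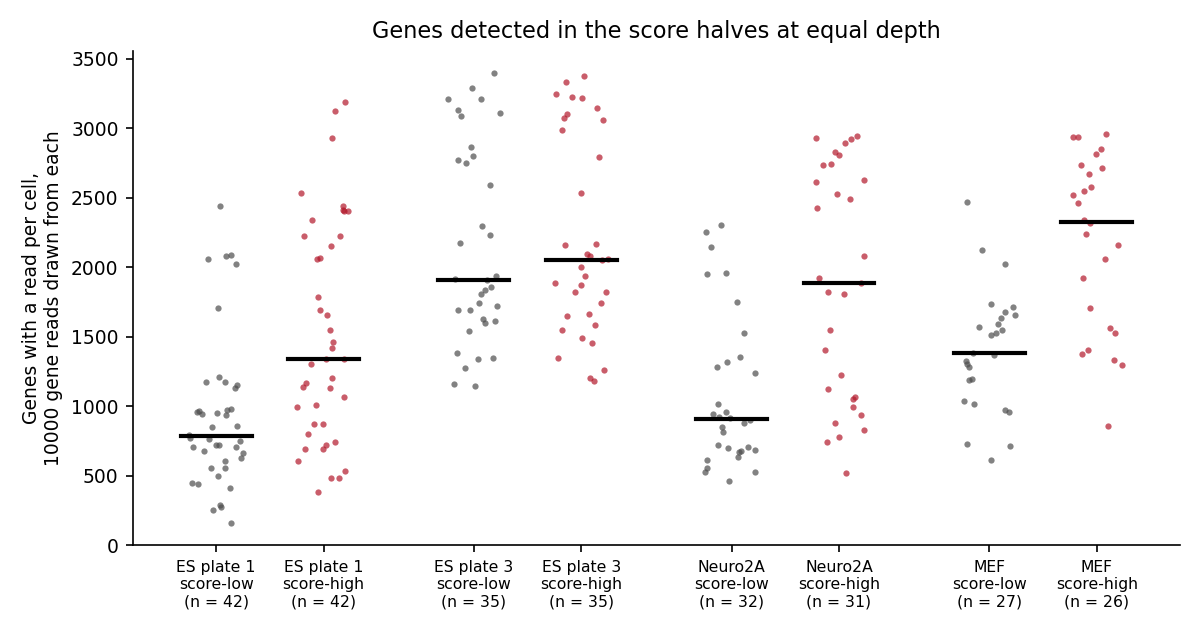
Genes with a read per cell when 10000 gene reads are drawn from each, for score-low (grey) and score-high (red) cells of the ES, Neuro2A and MEF plates; bars are medians. Score-high cells lie higher in plate 1 (1341 against 783.5), Neuro2A (1890 against 907) and MEF (2326.5 against 1384), and differ least in ES plate 3.

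Markers of ES cells were read in both groups. The 9 ES markers, among them Pou5f1, Nanog, Sox2 and Zfp42, summed to 10422 CPM in score-high and 10636 in score-low cells of plate 1, and to 9707 and 8875 in plate 3, and all 9 had reads in every sum. The pluripotency factor Sox2 stood at 1338 against 1182 CPM in plate 1 and at 439 against 428 in plate 3. Zfp42 (Rex1) stood at 983 against 893 and at 1137 against 834. Nanog was the least even, at 574 against 1649 CPM in plate 1 and at 449 against 368 in plate 3. Of 39 tested pluripotency genes, 0 were at least 2-fold higher or lower in both plates, and 4 were 2-fold in opposite directions (Dnmt3b, Lin28, Fbxo15 and Nr5a2). Of all tested genes 5.63% were higher in both plates, 4.47% lower in both and 9.71% opposite. Dnmt3b, a DNA methyltransferase, stood at 1296 against 90.6 CPM in plate 1 and at 138 against 479 in plate 3.

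Markers of other cells were low in plate 1. The 12 fibroblast markers (Col1a1, Col3a1, Dcn and others) summed to 69.9 and 29.6 CPM there, with 1 of 12 read in each group, but to 2992 CPM in score-high and 4295 in score-low cells of plate 3, where 12 and 11 of 12 had reads. In MEF themselves they summed to 24458 and 29661. Genes particular to MEF, 200 in number, were found in ES plate 3 at a median of 10.8% of their MEF reads. Their reads in the 96 wells of ES plate 3 followed those of the MEF wells with the same tag, with a Spearman correlation of 0.957, against 0.065 for ES plate 1, as a description. The fibroblast marker reads of plate 3 thus cannot be told apart from reads of the MEF plate. Macrophage markers were at 0 in plate 1 and at 25.9 and 4.95 CPM in plate 3, with Csf1r, Ptprc, Cd14 and Aif1 at 0 throughout. Removing MEF reads well by well from plate 3 left 555 genes 2-fold higher and 412 lower in both plates, against 522 and 415 before.

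The test across all other genes called none. Reads were summed per plate and score group and fitted with edgeR's quasi-likelihood test, with the plate as a block and 1 residual degree of freedom. Of 9278 genes tested outside the score, 0 were higher (0.0%) and 0 lower (0.0%) in score-high cells at a Benjamini-Hochberg adjusted p under 0.05; at an unadjusted p under 0.05, 63 were higher and 100 lower. The smallest adjusted p by edgeR was 0.9998, and the biological coefficient of variation was 85.8%. DESeq2 with the same design gave an adjusted p to 6102 genes, a different set from the 9278, and called 4 higher and 10 lower. Its 4 higher genes, named here because they are few and chosen after their values were seen, were Stag2, Cdkl2, Serac1 and Tmem161a. All but Stag2 rest on few cells at equal depth. Serac1 was read in 1 and 0 score-high cells of plates 1 and 3, and Cdkl2 in 2 and 3. Tmem161a was read in 5 and 3 score-high cells and in 3 and 3 score-low cells.

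Agreement between the plates was then described by ratio, on the log2(CPM + 1) scale, which understates the change of low genes. At least 2-fold higher in the score-high cells of both plates were 522 genes (5.63% of those tested), at least 2-fold lower in both were 415 (4.47%), and 901 (9.71%) were 2-fold higher in one plate and 2-fold lower in the other. Genes that went opposite ways were thus about as many as genes that went the same way in both plates. Across the 9278 genes the ratios of the 2 plates had a Pearson r of 0.005 and a Spearman rho of 0.004, a description across genes, which are not independent. Among the 1919 genes that reached 100 CPM in a score group of each plate, 24 were higher in both, 36 lower in both and 58 opposite.

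**Figure D4:**
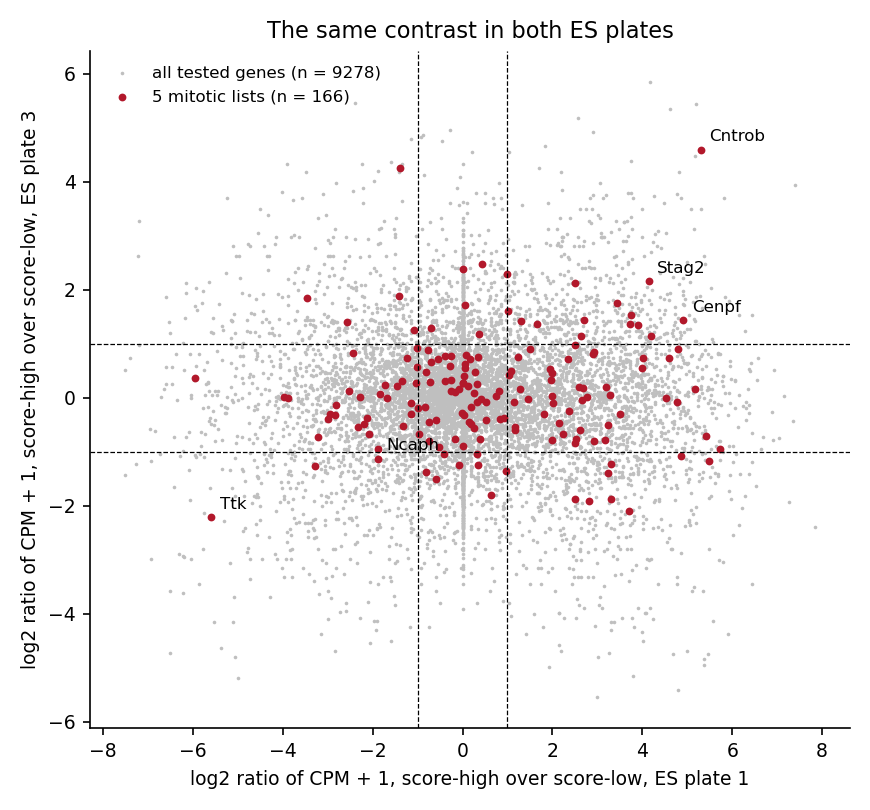
log2 ratio of CPM + 1, score-high over score-low, for each tested gene in ES plate 1 (x axis) and ES plate 3 (y axis), with the genes of the 5 mitotic lists in red and 2-fold lines dashed. The cloud has no slope (r = 0.005); Stag2, Cenpf and Cntrob lie up in both plates and Ttk and Ncaph down in both.

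The other genes of mitosis, in 5 lists without the score genes, were then read against that background. Of 205 genes listed, 172 had reads and 166 passed the filter on low counts and were tested. Of these, 14 (8.43%) were at least 2-fold higher in both plates and 3 (1.81%) at least 2-fold lower, beside 5.63% and 4.47% of all tested genes, and 13 were opposite. Several of the 14 rest on few cells of a plate, as given below. edgeR called 0 of the 166. Their median log2 ratio was 0.33 in plate 1 and 0.05 in plate 3, beside 0.00 and 0.01 for all tested genes. Within gene-number strata the counts were 12 and 4 (7.23% and 2.41%, beside 5.71% and 4.16% of all genes). Without wells whose tag ends in G they were 24 and 10 of 154 (15.6% and 6.49%, beside 10.2% and 7.17%). With a score of Ccnb1, Cdc20, Plk1 and Top2a alone they were 11 and 5, so that 6.63% of the lists were higher beside 6.42% of all genes. With MEF reads removed from plate 3 they were again 11 and 5 (6.63% beside 6.16% higher), so under these 2 settings the share of higher genes is that of all genes.

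Among kinases and phosphatases of mitotic entry, 2 of 25 tested genes were 2-fold higher in both plates and 2 lower, with medians of 0.92 in plate 1 and 0.00 in plate 3. Cdc25a, a phosphatase that activates cyclin-dependent kinases, stood at 77.7 CPM in score-high against 3.32 in score-low cells of plate 1, and at 57.8 against 25.7 in plate 3; 1 cell gave 72.2% of its reads in the plate 1 score-high sum. Cdc25b, the other higher gene, had 98.3% of its plate 1 score-high reads in 1 cell. Cdc2a (the older symbol of Cdk1), the kinase that the B cyclins activate, stood at 91.5 against 13.6 CPM in plate 1 and at 66.4 against 68.3 in plate 3. The score-high and score-low sums of plate 3 are thus level for the partner of the score's own cyclins. Aurkb, which works in a complex with Birc5, went the other way in plate 1, at 21.5 against 329 CPM, and was level in plate 3, at 40.5 against 40.6. Ttk (Mps1), the checkpoint kinase, was lower in both plates, at 1.21 against 105 and at 9.48 against 47.5 CPM, with 98.3% of its plate 1 score-low reads in 1 cell.

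Kinetochore and checkpoint genes had a median log2 ratio of 1.45 in plate 1 and -0.01 in plate 3 over 43 genes. Higher in both by 2-fold were 6 (Cenpb, Cenpf, Cenpi, Kntc1, Mad2l1 and Mad2l1bp) and lower in both 0. Some of these rest on few cells. Mad2l1bp stood at 3.10 against 0.302 CPM in plate 1, with a read in 1 against 0 cells at equal depth. Cenpb had a read in 2 against 0 cells of plate 3. For Cenpi, 1 cell gave 83.5% of the plate 1 score-high reads. Cenpf, a large outer kinetochore protein that peaks in G2 and M, stood at 175 CPM against 4.83 in plate 1 and at 138 against 50.5 in plate 3. It had a read in 6 against 2 cells of plate 1 and in 15 against 7 of plate 3, and 1 cell gave 74.1% of its plate 1 score-high reads. Mad2l1, the Mad2 protein of the spindle checkpoint, stood at 134 against 19.6 CPM and at 98.3 against 35.6. Bub1, another checkpoint kinase, stood at 160.3 against 6.04 CPM in plate 1 but at 46.6 against 46.5 in plate 3.

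Spindle motors and microtubule factors had 5 of 45 genes 2-fold higher in both plates (Cntrob, Dlg7, Gas2l3, Kif18a and Kif22) and 0 lower, with medians of 0.33 and 0.27. Kif18a, a motor that dampens chromosome oscillation, stood at 63.95 against 3.32 CPM in plate 1 and at 54.3 against 20.8 in plate 3. It had a read in 4 against 1 cells of plate 1, and 1 cell gave 73.8% of its score-high reads there. Dlg7 (Dlgap5 or HURP), which stabilises spindle fibres, had a read in 3 against 1 cells of plate 1 and in 9 against 1 of plate 3. Cntrob lay farthest up but rests on single cells, which gave 82.97% and 98.2% of its score-high reads. Gas2l3 had a read in 2 against 2 cells of plate 1 and in 4 against 4 of plate 3. Kif11 (Eg5), the motor that separates the spindle poles, was lower in both plates by less than 2-fold, at 189 against 272 CPM and at 72.4 against 137.

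The anaphase-promoting complex and its partners had 0 of 18 genes 2-fold up or down in both plates, with medians of 0.43 and -0.44. Ube2c, the ubiquitin-conjugating enzyme of that complex, stood at 218 against 61.3 CPM in plate 1 and at 121 against 149 in plate 3. Condensin, cohesin and chromosome structure genes had 1 of 35 higher (Stag2) and 1 lower (Ncaph, a condensin subunit), with medians of -0.17 and 0.17. Smc4, a condensin core subunit, stood at 415 against 170.4 CPM in plate 1 and at 447 against 397 in plate 3. In plate 1, 1 cell gave 84.2% of its score-low reads.

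Stag2, a subunit of the cohesin ring that holds sister chromatids together, had the largest agreement of all the genes ranked. Stag2 was picked out by its ratios in these same sums. Its levels, cell counts and p-values in the ES plates therefore describe that choice and are no separate support. It stood at 583 CPM in score-high against 32.03 in score-low cells of plate 1, and at 339.7 against 75.2 in plate 3, so both score-high sums lay above both score-low sums. It had a read in 19 of 42 against 5 of 42 cells, and in 16 of 35 against 8 of 35. The edgeR log2 fold change was 3.18 (SE 0.72), with an unadjusted p of 0.000165 and an adjusted p of 0.9998; DESeq2 gave an adjusted p of 0.0181. Without the cell that gave most reads in each sum it stood at 288 against 12.7 and at 247 against 55.4 CPM.

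The rule did not use the Neuro2A and MEF plates. ES plate 3 held reads that cannot be told apart from MEF reads, so MEF may not be separate from the choice. In Neuro2A and MEF, Stag2 was on the same side, at 993 against 58.8 CPM and at 210.2 against 20.7. There it had a read in 10 of 31 against 6 of 32 and in 4 of 26 against 2 of 27 cells. Beside this, score-high cells of those plates had reads on more genes of any kind (medians of 1890 against 907 and 2326.5 against 1384) and more often a tag ending in G (16 against 6 and 17 against 3 cells); their part in the Stag2 values was not tested. It kept its direction within gene-number strata, with log2 ratios of 1.94 and 1.62 in ES plates 1 and 3. With the score of 4 genes the mean log2 ratio of the plates was -0.74, so its direction depends on which score genes are used.

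**Figure D5:**
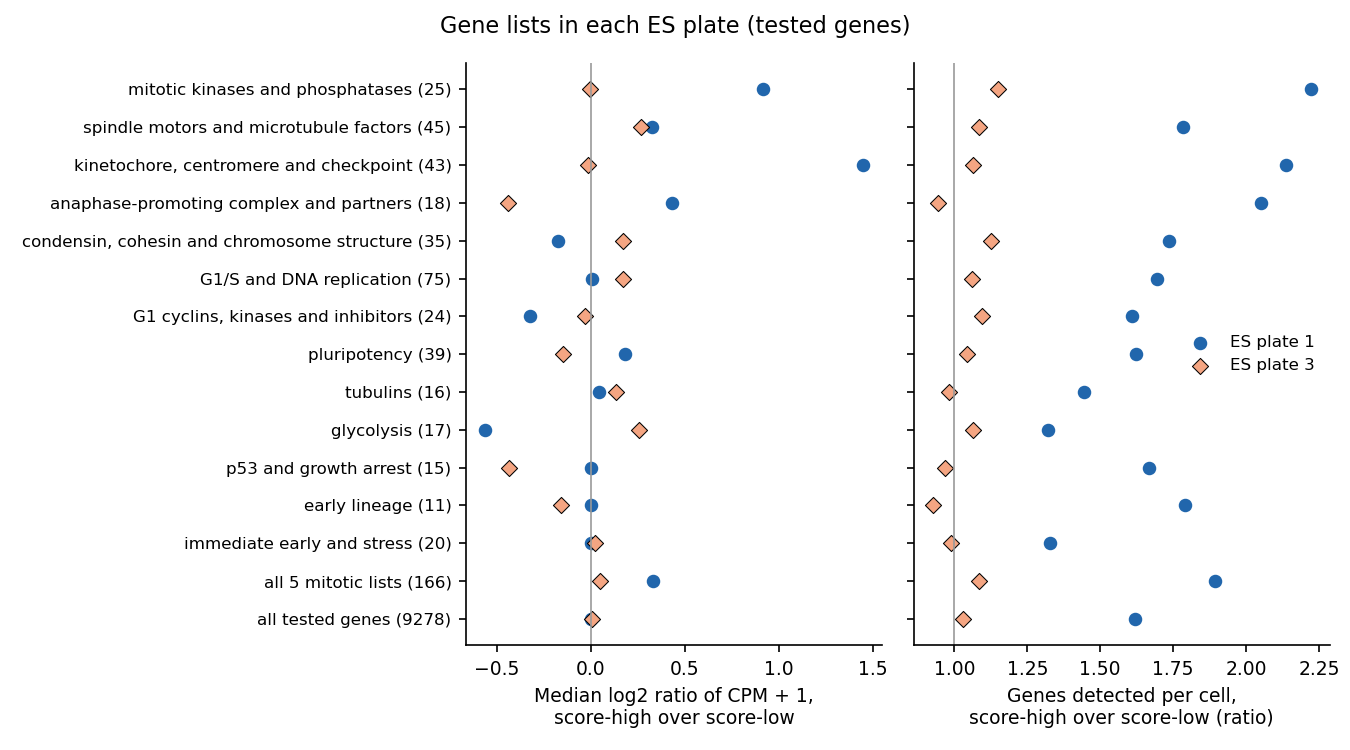
Left: median log2 ratio of CPM + 1 (score-high over score-low) of the tested genes of each list in ES plate 1 (circles) and plate 3 (diamonds), with the number of genes in brackets. Right: ratio of the mean number of the list's genes with a read per cell at 10000 reads; in plate 1 every list lies above 1, as do all tested genes (1.62), while plate 3 lies near 1.

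Few genes of other cell-cycle stages were 2-fold higher or lower in both plates. Of 75 G1/S and DNA replication genes 2 were 2-fold higher in both plates (Ccne1 and Exo1) and 2 lower (Cdc45l and Pole), with medians of 0.01 and 0.17. Among all tested genes 5.63% were higher and 4.47% lower. Ccne1, the cyclin of S phase entry, stood at 187 against 56.2 CPM in plate 1 and at 145 against 44.5 in plate 3. Within gene-number strata its log2 ratios were -0.67 and -0.06, and with MEF reads removed from plate 3 the mean of both plates was 0.37 against 1.70 before. Pcna, the replication clamp, stood at 563 against 1046 CPM in plate 1 and at 118 against 114 in plate 3. Of 24 G1 cyclins, kinases and inhibitors 1 was higher (E2f6) and 2 lower (Ccnc and Ccnd1). Ccnd1, the G1 cyclin, stood at 0.810 against 18.7 CPM and at 6.90 against 42.6, and 1 cell gave 100% of its plate 1 score-low reads.

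Among genes outside the cell cycle, the p53 list had 0 of 15 higher and 2 lower in both plates: Mdm2, the ligase that degrades p53, at 91.7 against 340.5 and 97.4 against 232 CPM, and Trp53inp1 at 321 against 719.7 and 336 against 691. The list's medians were 0.00 and -0.44. Immediate early and stress genes had 2 of 20 lower (Fos and Junb) and 0 higher, tubulins 2 of 16 higher (Tubgcp2 and Tubgcp3, of the gamma-tubulin ring), and glycolysis 0 of 17 either way with medians of -0.56 and 0.25. Tubgcp2 stood at only 1.89 against 0 CPM in plate 1. Early lineage genes had 0 of 11. Beside these small counts, 5.63% of all tested genes were 2-fold higher and 4.47% lower in both plates. None of these lists held a gene called by edgeR.

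Detection per cell was compared at equal depth. At 10000 reads per cell, score-high cells had reads on a mean of 34.9 of the 166 mitotic genes against 18.4 in plate 1, a ratio of 1.89, and on 48.5 against 44.7 in plate 3, a ratio of 1.08. All tested genes had ratios of 1.62 and 1.03, and pluripotency genes 1.62 and 1.04. Within gene-number strata, the mitotic genes had ratios of 1.29 and 1.01, beside 1.18 and 0.987 for all tested genes.

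Beyond the lists, 433 genes were higher in the score-high cells of both plates with at least 100 CPM there and a read in at least 10% of those cells, and 438 met the same terms in the score-low cells. The 10 with the largest smaller-of-the-plates ratio on the higher side were Stag2, March6, Ccne1, Pdcd4, Med8, Cenpf, Nol11, Exo1, Xpot and A430041B07Rik. March6, a ubiquitin ligase of the endoplasmic reticulum, stood at 203 against 25.7 CPM and at 218 against 63.3. Med8, a Mediator subunit, stood at 395 against 84.6 and at 269 against 98.95. Exo1, an exonuclease of mismatch repair, stood at 261 against 54.1 and at 115 against 42.6; 1 cell gave 68.3% and 64.8% of its plate 1 reads in the respective groups, and within gene-number strata its plate 1 log2 ratio was -1.94. Xpot, which exports tRNA from the nucleus, stood at 416 against 74.9 and at 472 against 178, with 62.8% of the plate 3 score-high reads in 1 cell. Within gene-number strata its log2 ratios were 0.38 and -1.53.

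On the lower side the 10 were 4933439F18Rik, Gapvd1, Uchl5, Copa, Slc19a2, Smad7, 2010003J03Rik, Cdv3, Ccdc117 and LOC100042767. Copa, a coat protein of Golgi vesicles, stood at 64.2 against 346 CPM in plate 1 and at 38.8 against 111 in plate 3. Uchl5, a deubiquitinase of the proteasome, stood at 182 against 535 and at 43.1 against 148. Smad7, an inhibitor of TGF-beta signalling, stood at 59.2 against 307 and at 56.9 against 160.3. Within gene-number strata its log2 ratios were -0.72 in plate 1 and 0.54 in plate 3, and those of Gapvd1 were -3.50 and 0.27, so neither stayed lower in both plates. The others of the 10 stayed below 0 in both plates. Uchl5 was at -1.12 and -2.80 and Copa at -1.34 and -1.21, while 4933439F18Rik was at only -0.04 in plate 1.

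The genes that agreed in the ES plates were then looked up in the other cell types. ES plate 3 held reads that cannot be told apart from MEF reads, so the MEF values may not be separate from the choice of genes. Of the 522 genes up in both ES plates, 385 had reads in Neuro2A, where 51.2% were higher in score-high cells, beside 52.5% of all tested genes, and 429 in MEF, where 55.2% were higher, beside 50.9%. Of the 10 named higher genes 5 were on the same side in Neuro2A and 5 in MEF, with Stag2 and Cenpf on that side in both; the Neuro2A count includes Ccne1, which had 1 read there. Cenpf stood at 206 against 14.3 CPM in Neuro2A but at 3.11 against 0.667 in MEF. Of the 10 named lower genes 6 and 5 were on the same side. The 5 mitotic lists had medians of 0.74 in Neuro2A and 0.49 in MEF, beside 0.00 for all tested genes in each. All tested genes with reads there had medians of 0.13 and 0.04. The shift was not particular to mitotic genes: G1/S and DNA replication genes had medians of 1.74 in Neuro2A and 0.29 in MEF, and tubulins 0.00 and 0.57.

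The promoter motifs were also counted for the 5 mitotic lists, of which 141 of the 166 tested genes matched the RefSeq table by current or older symbol. Of their 169 promoters 28.4% held a CHR match and 50.9% an NF-Y box, beside 17.1% and 33.85% of all promoters. Of all tested genes 71.8% matched, and of the 522 genes up in both plates 75.1%, too few for either to be set beside the lists, so that count is void.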

How the data were processed

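Single-cell tagged reverse transcription (START) libraries of 5 plates were used as deposited. The deposited tables give raw hit counts by feature and well tag, per the accompanying readme. The submitters' processing notes list Bowtie; no version, build or annotation is given in the sources used here. Gene names are those of the files. Repeat and mitochondrial rows, 26.1% and 9.28% of reads in ES plate 1 and 39.99% and 8.45% in plate 3, entered neither library sizes nor tests. Cells were sorted 1 per well and no doublet caller was run.

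Reads were summed over the score-high or score-low cells of each plate, giving 7538039 and 3839060 gene reads (score-high, score-low) in ES plate 1 and 1071461 and 927322 in plate 3. Cells are not replicates, so edgeR 4.0.16 was run on the 4 sums (glmQLFit, glmQLFTest, TMM, filterByExpr, Benjamini-Hochberg at 0.05), with the plate, which both groups share, as a block; DESeq2 1.42.0 was an alternative. The script was tested on simulated data. Ratios used a pseudocount of 1 CPM. For detection, 10000 gene reads were drawn from each cell with a fixed seed. Reads without molecular identifiers are not independent molecules. Genes were named by rule: members of the lists, and 10 each way by the smaller of the 2 plates' ratios, at 100 CPM and in 10% of cells of the higher group of each plate. The cells, score genes and lists were chosen with earlier results of these data known. Python 3.11.15, numpy 2.4.6, pandas 2.3.3, matplotlib 3.10.9 and R 4.3.3 were used.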

Additional observations from a re-analysis of the deposited data

Results flagged for a closer look

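Some genes lay 1 way in both ES plates and the other way in a plate of another cell type; with 1 plate a type these differences were not tested, and the genes had been chosen for their direction in ES cells. Of the named higher genes, the log2 ratio (score-high over score-low) in Neuro2A was -2.15 for March6, -1.52 for Med8, -1.41 for Xpot and -1.41 for A430041B07Rik. In MEF it was -1.27 for Pdcd4, -3.60 for Exo1 and -1.02 for A430041B07Rik. Of the named lower genes, it was 4.92 for Uchl5, 5.29 for 2010003J03Rik, 1.42 for Ccdc117 and 2.63 for LOC100042767 in Neuro2A. In MEF it was 2.69 for 4933439F18Rik, 1.21 for Gapvd1, 2.20 for 2010003J03Rik and 3.57 for Ccdc117. Several of these rest on very few cells with a read at equal depth (score-high and score-low). In MEF these were 0 and 2 for Exo1, 3 and 0 for Ccdc117 and 2 and 0 for 4933439F18Rik. In Neuro2A they were 2 and 0 for 2010003J03Rik. Others were read in more cells, as Gapvd1 in MEF (16 and 2). March6 (11 and 6) and Med8 (19 and 9) were read in more score-high Neuro2A cells, though their ratios were negative.

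Of the score genes split by the other 7, Ccnb1 and Birc5 were lower in the upper group of both ES plates, while their log2 ratios were 0.98 and 3.44 in Neuro2A and 0.53 and 3.13 in MEF. For Ccnb1 this contrast does not hold at equal weight of cells: with 10000 reads per cell it stood at 259.5 RPM in the upper group of ES plate 1 against 88.1 in the rest, and at 142 against 131 in Neuro2A. Ccnb2 was likewise lower in both ES plates and had a log2 ratio of 4.12 in MEF, where it had 21 reads in all.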

How the results depend on the processing

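edgeR called 0 genes in either direction without the replicate block (the plate left out of the design), with DESeq2 size factors, library size alone, thinned cells, 5000 or 20000 gene reads per cell, the highest against the lowest scores (the middle of each plate left out), the 4-gene score, MEF reads subtracted and the median within gene-number strata. DESeq2 called 4 higher and 10 lower among the 6102 genes to which it gave an adjusted p. Without a filter on low counts edgeR called 1 gene higher (Tpd52), and without wells whose tag ends in G 2 higher (Bclaf1, Rtn4) and 4 lower (2010003J03Rik, Cdc42bpa, Dbi, Pcmtd2), names chosen after their values were seen. Leaving out a plate leaves no residual degree of freedom, so no test was run. Genes 2-fold higher in both plates numbered 315 with thinned cells (5.42% of those tested; 278 lower, 4.78%), 823 between the highest and lowest scores (10.05%; 403 lower, 4.92%), 815 without those wells (10.2%; 574 lower, 7.17%) and 210 at a pseudocount of 10 CPM (2.26%; 177 lower, 1.91%); without plate 1 or plate 3, that is in 1 plate alone, 1460 to 2846 were higher and 1545 to 2137 lower. Of the named genes, the mean log2 ratio changed sign for Stag2 and Ccdc117 with the 4-gene score, for Ccne1 at 20000 reads and within gene-number strata, for Exo1 within those strata, and for Xpot under these 3 settings. The mean of the 2 plates' medians over the 5 mitotic lists ran from 0.05 to 0.39 over 15 alternatives. Depth limits single genes: of the reads of a gene in a sum, 1 cell often gave a large part, as given in the text for some genes.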
